A study of Mus musculus with 4 samples.

Results

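Genes that copy DNA and genes that divide the cell were followed in LK cells from NOD mice, a strain that develops autoimmune diabetes. LK cells are the Lin-, c-Kit+ fraction of blood-forming cells, in which stem cells and progenitors are concentrated. The list holds 58 genes, 28 of the G1/S transition and DNA replication and 30 of G2/M and mitosis. A member was taken where a probe set named its symbol and no other, which gave 55 of the 58 members among 30142 genes measured in this way. These were 27 G1/S members and 28 G2/M members, each with a single probe set. Ccnb1, whose product is a mitotic cyclin, had no probe set naming it, and the probe sets naming Mcm7 and Ccnf also name other genes, so these 3 have no value.

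There were 4 arrays, 1 per sample. Cells were cultured in StemSpan medium at 37 °C for 4 h, in all samples alike. In the vehicle group, 2 samples received DMSO. In the combination group, 2 samples received dmPGE2 and dexamethasone at 10 µM each, so neither drug was measured alone. dmPGE2 is a stabilised form of prostaglandin E2, a lipid mediator whose receptors include ones that raise cAMP, and dexamethasone is a synthetic glucocorticoid. Each group has a replicate 1 and a replicate 2, and the labels do not say what a shared number stands for. The series text calls the duplicates biological but does not give the age of the mice or whether samples came from separate animals, so p-values measure only the spread between these samples. All signals are RMA values in log2 units, where a difference of 1 is a doubling.

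A dividing cell uses its replication and mitosis genes in sequence. Around the G1/S transition, E2F transcription factors released from the retinoblastoma family switch on the genes that license origins, unwind DNA and supply nucleotides. Genes needed for the spindle and for division follow in G2, and many of them are held down in quiescent cells by the DREAM complex, which contacts a promoter element called the CHR, and are activated later through MuvB together with B-Myb or FoxM1. The CCAAT box, bound by NF-Y, is common in the same promoters. In bone marrow, stem cells are mostly quiescent while the progenitors that make up most of the LK fraction divide often, and erythroid progenitors divide in close step with their maturation. In a bulk sample, fewer cycling cells and less RNA per cycling cell cannot be told apart.

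Promoter windows, from 250 bases before to 50 bases after a gene's start in RefSeq's annotation of GRCm38.p6, were found for 48 of the 58 members (23 G1/S and 25 G2/M), of which 45 were also measured. These kinds of letters were searched on both strands. E2F-type letters were TTTCCCGC, TTTGGCGC, TTTCGCGC and TTTGCCGC, CHR-type letters were TTTGAA and TTCGAA, and the CCAAT box was CCAAT. No motif holds another, although matches of different kinds or strands can overlap. A gene was counted where any of its windows held the letters.

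G1/S and G2/M members held different letters. E2F-type letters were present in 10 of 23 G1/S members (43.5%) and in 1 of 25 G2/M members (4%), against 2.6% of all 27025 genes with a window. The 10 are Cdc6, Cdt1, E2f2, Mcm3, Mcm5, Mcm6, Mcm7, Pola1, Rfc3 and Uhrf1, and the G2/M member is Cdk1. CHR-type letters were present in 20 of 25 G2/M members (80%) and in 5 of 23 G1/S members (21.7%), against 21.7% of all genes. All 20 of those G2/M promoters and all 5 of those G1/S promoters also held a CCAAT box, a pair found in 9.65% of all genes. The CCAAT box alone was more widespread, in 88% of G2/M members, 69.6% of G1/S members and 41.1% of all genes. A match is a description of letters and does not show that a factor was bound.

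The following stretches show these letters, in capitals, in members that the results return to. They are written 5′ to 3′ on the gene's strand, from RefSeq's GRCm38.p6 windows, with the position given in that build. Mcm6, Cdc6 and Rfc3 show the E2F-type letters of the G1/S group, on either strand. Ccnb2 and Cdc20 show the CHR-type letters and the CCAAT boxes of the G2/M group, and Cdk1 carries all 3 kinds.

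Mcm6, chr1:128359706-128359835, minus strand: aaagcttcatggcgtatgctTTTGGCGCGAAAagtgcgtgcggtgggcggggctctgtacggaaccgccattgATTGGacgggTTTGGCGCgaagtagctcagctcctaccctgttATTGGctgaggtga

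Cdc6, chr11:98907991-98908090, plus strand: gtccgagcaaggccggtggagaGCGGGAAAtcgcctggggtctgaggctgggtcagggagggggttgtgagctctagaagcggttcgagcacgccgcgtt

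Rfc3, chr5:151651209-151651288, minus strand: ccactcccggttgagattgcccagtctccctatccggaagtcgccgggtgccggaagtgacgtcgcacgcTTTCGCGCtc

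Ccnb2, chr9:70421555-70421734, minus strand: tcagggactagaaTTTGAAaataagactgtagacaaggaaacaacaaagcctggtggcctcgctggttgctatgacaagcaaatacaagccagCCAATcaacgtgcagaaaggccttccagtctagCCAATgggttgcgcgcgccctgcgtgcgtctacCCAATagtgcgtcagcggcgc

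Cdc20, chr4:118437344-118437423, minus strand: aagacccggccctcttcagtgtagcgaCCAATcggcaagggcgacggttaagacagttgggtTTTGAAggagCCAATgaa

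Cdk1, chr10:69352913-69353062, minus strand: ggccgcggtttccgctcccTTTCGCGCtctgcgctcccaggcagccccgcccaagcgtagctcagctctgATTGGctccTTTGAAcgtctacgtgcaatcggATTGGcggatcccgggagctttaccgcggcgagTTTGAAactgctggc

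The stretches end at the base before the start, except that of Cdc6, which ends 61 bases before it. Mcm6 holds 3 E2F-type matches, the first pair of which overlap on opposite strands. In Ccnb2 a further CHR-type match begins 5 bases after the start, outside the printed stretch. Of the 20 G2/M members with CHR-type letters, 19 had a match beginning within 50 bases of the start, a distance chosen after the positions were seen. The exception was Mki67, whose matches begin at -116 and -98 from it. Every match after the start meets this distance, since the windows end 50 bases after the start. The share among all genes, or among the G1/S members, was not counted.

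**Figure D1:**
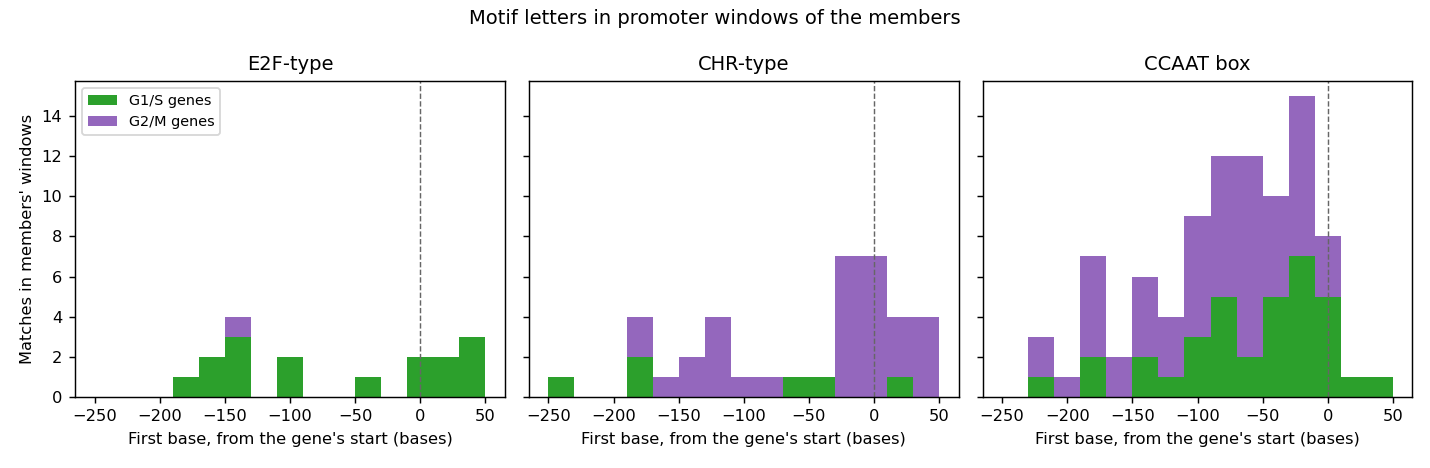
Number of matches to the E2F-type, CHR-type and CCAAT letters against the distance of the match's first base from the gene's start, in bases, for the G1/S and the G2/M members with a promoter window (all windows of a gene counted). CHR-type matches of the G2/M members gather around the start, and their E2F-type matches come from Cdk1 alone.

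The labelled cells were checked against marker genes. Kit, the receptor by which the cells were selected, had signals of 10.18 and 10.32 with vehicle and 10.51 and 9.62 with the combination. All 4 measured B cell markers and all 6 T and NK cell markers lay within the range of the 23 background probe sets, whose highest single signal was 5.55. All 7 measured erythroid and all 7 monocyte markers were above it on every array. Of the progenitor markers, Procr lay within the background range on all 4 arrays, at 4.86 to 5.37. Of the other lineage lists, Ly6g lay within that range on all 4 arrays, and Retnlg, Mmp8, Ppbp and Fcer1a fell below 5.55 on at least 1. Every measured member lay above 5.55 on all 4 arrays, E2f2 only barely, at 5.61 to 5.88. Array medians were 4.36 to 4.44.

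No member passed the test for the combination against vehicle after 4 h. Most members of both phases had slightly lower mean signal with the combination, by less than the test could tell from the spread between arrays. The median log2 difference, combination minus vehicle, was -0.18 for the G1/S members and -0.14 for the G2/M members, against 0.01 over all genes. It was -0.07 over the 2259 genes whose mean signal lies between 9.84 and 12.1, the middle range of the members' own means. In limma's test with Benjamini-Hochberg adjustment over all 65956 features, 0 of 55 members were called, where 0.00303% of features (2 features) were. At an unadjusted p under 0.05, limma gave 0 members in either direction, where 2.44% of features were lower and 3.14% higher. Among the genes in the middle signal range, 5.40% were lower and 2.74% higher at that p.

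By sign alone, 45 of 55 members (81.8%) were lower with the combination and 10 higher, where 44.6% of features and 64.1% of the genes in the middle signal range were lower. Both combination arrays lay below both vehicle arrays for 13 of 55 members (23.6%), against 13.9% of all features and 24.4% of the genes in the middle signal range, so the share is near that of genes of like signal. The 13 were E2f1, E2f2, Ccne1, Mcm2, Mcm5, Rfc3 and Uhrf1 of G1/S, and Ccna2, Ccnb2, Bub1, Bub1b, Ube2c and Ect2 of G2/M. No member had both combination arrays above both vehicle arrays, which 20.4% of features and 10.9% of the genes in the middle signal range did. Beside these differences, all 7 measured erythroid markers had lower mean signal with the combination (median difference -0.31). So did 7 of 8 progenitor markers (median -0.21), all but Procr, which lay within the background range. Of 5 mast cell and basophil markers 4 were lower (median -0.32), while 8 of 11 neutrophil markers were higher (median 0.14). The neutrophil differences ran from -0.33 for Ly6g, within the background range, to 4.32 for Cxcr2. Mmp8 had 2.43, with vehicle 2 within the background range. Of 7 monocyte markers, 3 were lower and 4 higher (median 0.11), from -1.77 for Ccr2 to 2.43 for Cd14. Of 4 megakaryocyte markers, 1 was lower and 3 higher (median 0.10), Ppbp by 5.52 from vehicle signals within the background range. These counts stand beside the 44.6% of features and 64.1% of genes in the middle signal range lower by sign. Of 5 measured genes of RNA quality and handling stress, 3 were lower and 2 higher. Their median, -0.20, is the value of Atf3, which lay within the background range on all 4 arrays. Fos, an immediate early gene of this list, had 4.00 and 4.20 with vehicle and 5.08 and 6.11 with the combination. It was above the background range on combination 2 alone. The part of these markers in the members' differences was not tested.

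The differences were smaller in replicate number 2. Within number 1 the median difference was -0.27 for G1/S and -0.32 for G2/M, with 47 of 55 members lower, where 43% of features and 63.3% of the genes in the middle signal range were. Within number 2 it was -0.07 for G1/S and -0.03 for G2/M, with 34 of 55 (61.8%) lower, near the 58.04% of genes in the middle signal range (49.3% of features). The difference within number 1 was the more negative for 44 members (80%), against 45.8% of features and 55.9% of genes in the middle signal range. Lower within both numbers were 29 members (16 G1/S and 13 G2/M), against 23.4% of features and 41.8% of the genes in the middle signal range. Each number holds 1 array per group, so the contrast between the numbers has no test. Vehicle 1 was the highest of the 4 arrays for 44 of 55 members (21 G1/S and 23 G2/M), against 20.7% of features and 41.1% of genes in the middle signal range. Without vehicle 1, the median became -0.01 for G1/S and 0.01 for G2/M. Without vehicle 2 it was -0.43 and -0.30, and 9 members were then lower at an unadjusted p under 0.05 in limma (E2f1, Ccne1, Mcm2, Gins1, Pole, Ccnb2, Aurkb, Bub1b and Kif20a; 16.4%), with adjusted p of 0.95 or more. In that fit 2.38% of features and 5.05% of the genes in the middle signal range were lower at that p. The G1/S median was -0.32 without combination 1 and -0.10 without combination 2.

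**Figure D2:**
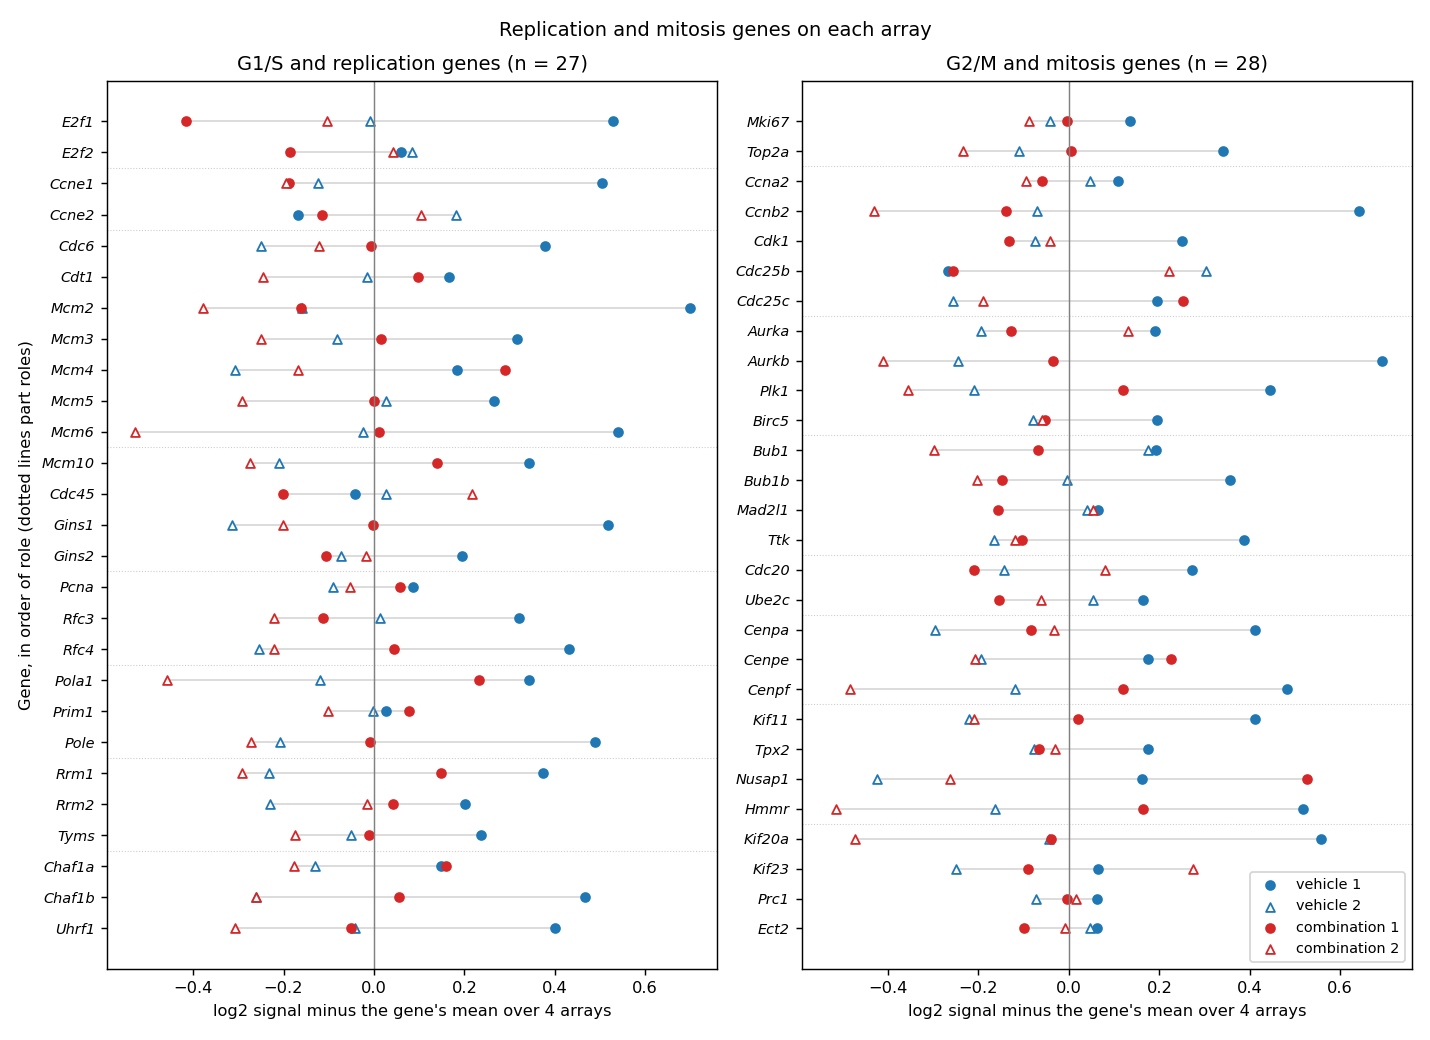
Log2 RMA signal of every measured member on each of the 4 arrays, as the difference from that gene's mean over the 4 arrays, ordered by role within the G1/S members and the G2/M members. Vehicle 1 is the highest array for 44 of the 55 members, and combination 2 is the lowest for 28. Combination 2 is the lowest array for 16832 of 65956 features and for 870 of 2259 genes in the middle signal range.

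**Figure D3:**
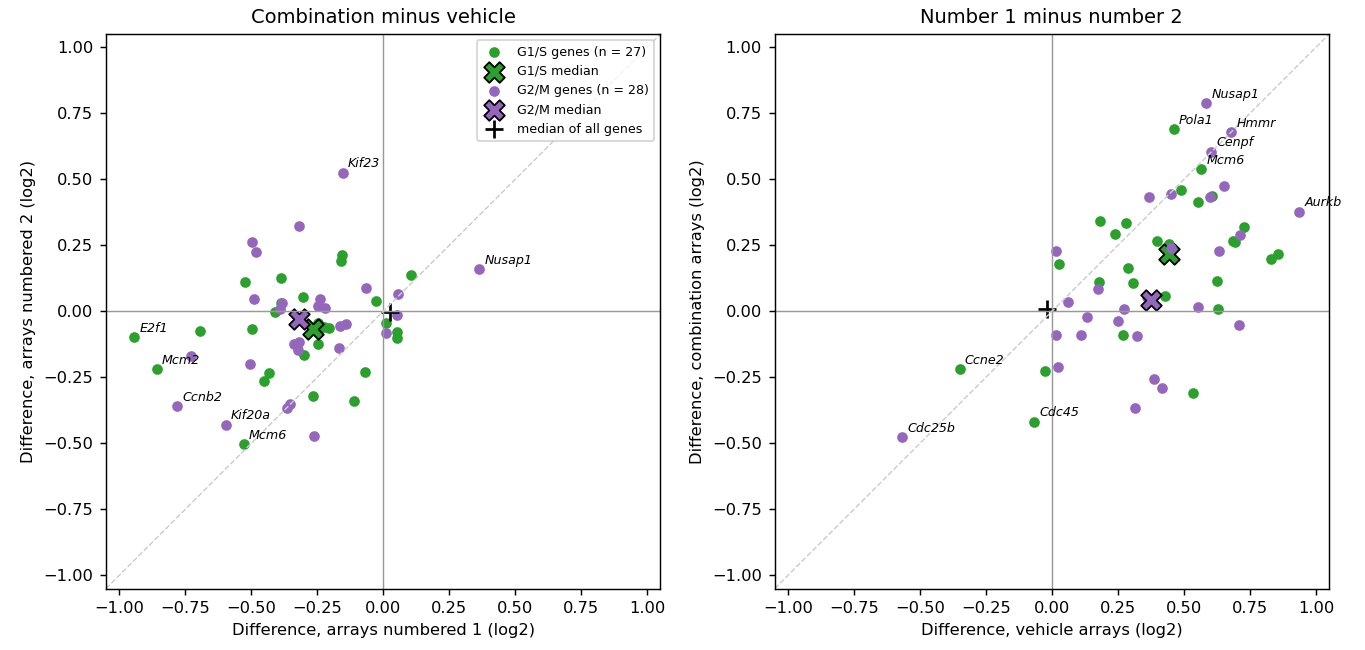
Log2 difference, combination minus vehicle, within number 1 (x axis) against within number 2 (y axis) for each measured member, with G1/S and G2/M members marked apart. For 44 of 55 members the difference is the more negative within number 1, and 29 are below 0 within both numbers.

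At the head of the G1/S program, E2f1, a transcriptional activator of replication genes, had signals of 8.74 and 8.21 with vehicle and 7.80 and 8.11 with the combination. Both combination arrays were below both vehicle arrays, combination 1 by far the most. The difference was -0.52 (SE 0.24, n = 2 per group), with an unadjusted p of 0.0865 and an adjusted p of 0.92 in limma, and it came to -0.94 within number 1 and -0.10 within number 2. E2f2, its close relative, had a difference of -0.14.

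Ccne1, the cyclin E that partners Cdk2 at S phase entry, stood out on 1 array only. Its signals were 12.42 and 11.79 with vehicle and 11.73 and 11.72 with the combination, so vehicle 1 was alone in being high, and the difference was -0.38 (SE 0.24). Ccne2, the other cyclin E, had signals of 10.63 and 10.98 with vehicle and 10.68 and 10.90 with the combination. Its groups overlapped fully, and it was among the few members with higher signal in number 2 in both groups.

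Origin licensing loads the MCM helicase on DNA, and 6 of its 7 measured members had negative differences, with a median of -0.23. By sign, 81.8% of all members, 64.1% of genes in the middle signal range and 44.6% of features were lower. Mcm6, a subunit of that ring, had signals of 13.73 and 13.17 with vehicle and 13.20 and 12.66 with the combination. It was lower by nearly the same amount in each number, with differences of -0.53 and -0.50, yet combination 1 still exceeded vehicle 2. Its overall difference was -0.52 (SE 0.29, adjusted p 0.937 in limma).

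With the replicate number as a block, Mcm6, Ccnb2 and Kif20a were lower at an unadjusted p under 0.05 in limma, at 0.0172, 0.0244 and 0.0199, with adjusted p of 0.48, 0.52 and 0.50. These 3 are 5.45% of the members, where 3.89% of features and 8.72% of the genes in the middle signal range were lower in the same fit, so the share is no higher than that of genes of like signal. Mcm2, a further ring subunit, had signals of 13.14 and 12.28 with vehicle and 12.28 and 12.06 with the combination. Vehicle 1 was apart from the other 3 arrays, and the difference was -0.86 within number 1 and -0.22 within number 2. Mcm5 had 12.38 and 12.14 with vehicle and 12.11 and 11.82 with the combination, a narrow separation of the groups with a difference of -0.29 (SE 0.18).

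Cdc6, a loader of the ring, did not separate the groups. Its signals were 11.43 and 10.80 with vehicle and 11.04 and 10.93 with the combination, both combination arrays lying between the vehicle arrays. Cdt1, which works with Cdc6, had 7.90 and 7.71 with vehicle and 7.83 and 7.48 with the combination, also overlapping. Mcm3 and Mcm4 had differences of -0.23 and 0.12, and Mcm4 was the licensing member with a positive one.

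For the proteins that turn the loaded ring into a moving helicase, the median difference was -0.13 over 4 members. Cdc45 had signals of 11.07 and 11.14 with vehicle and 10.91 and 11.33 with the combination, so the vehicle arrays lay between the combination arrays. Gins1 had 10.66 and 9.83 with vehicle and 10.14 and 9.94 with the combination. The vehicle arrays of Gins1 were 0.83 apart, more than its difference within either number, -0.52 in number 1 and 0.11 in number 2. Mcm10 and Gins2 had differences of -0.13 and -0.12.

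The clamp that holds polymerases on DNA showed almost no difference. Pcna, its only subunit, had signals of 15.27 and 15.09 with vehicle and 15.24 and 15.13 with the combination, with a difference of 0.01 (SE 0.14). Rfc3, a subunit of the clamp loader, had 7.82 and 7.51 with vehicle and 7.39 and 7.28 with the combination. The groups of Rfc3 did not overlap, and its difference was -0.33 (SE 0.16, adjusted p 0.929 in limma). Rfc4 had a difference of -0.18.

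Pola1, the catalytic subunit of the polymerase that starts each new strand with primase, had signals of 10.25 and 9.79 with vehicle and 10.14 and 9.45 with the combination. The numbers stood further apart than the groups, and the difference between groups was -0.22 (SE 0.30). Pole, of the leading strand polymerase, and Prim1, of primase, had differences of -0.28 and -0.02. Rrm2, a subunit of ribonucleotide reductase, had 10.79 and 10.36 with vehicle and 10.63 and 10.58 with the combination, and its combination arrays lay between its vehicle arrays. Rrm1, the other subunit, and Tyms, thymidylate synthase, had differences of -0.14 and -0.19.

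Uhrf1, which guides Dnmt1 to newly copied DNA, had signals of 10.28 and 9.84 with vehicle and 9.83 and 9.57 with the combination. Its groups touched at vehicle 2 and combination 1, and the difference was -0.36 (SE 0.21). Chaf1a and Chaf1b, subunits of the factor that places histones on new DNA, had differences of -0.02 and -0.21.

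Among the G2/M members, Mki67, the proliferation antigen Ki-67, had signals of 16.58 and 16.40 with vehicle and 16.44 and 16.36 with the combination. The groups overlapped, and the difference was -0.09 (SE 0.14). Top2a, the topoisomerase that untangles sister chromosomes, had 13.47 and 13.02 with vehicle and 13.13 and 12.90 with the combination, overlapping between groups, with a difference of -0.23 (SE 0.21).

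Of the cyclins and the kinase that drive entry into mitosis, Ccnb2, a B-type cyclin, had the most negative difference of the members. Its signals were 12.78 and 12.07 with vehicle and 12.00 and 11.71 with the combination, so that both combination arrays were below both vehicle arrays, by little at the nearest pair. The difference was -0.57 (SE 0.28), a signal 1.48-fold lower, with an unadjusted p of 0.105 and an adjusted p of 0.93 in limma. Ccna2, cyclin A2, had 12.91 and 12.85 with vehicle and 12.74 and 12.71 with the combination.

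Replicates of Ccna2 were close to each other, and its small difference of -0.15 (SE 0.13) still separated the groups. Cdk1, the kinase partner of these cyclins, had signals of 11.53 and 11.20 with vehicle and 11.14 and 11.23 with the combination, so vehicle 1 alone was high. Cdc25b and Cdc25c, phosphatases that activate Cdk1, had differences of -0.04 and 0.06.

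Aurkb and Birc5 belong to the chromosomal passenger complex, and Aurka and Plk1 are kinases of the spindle poles and of mitotic entry. Aurkb had signals of 11.50 and 10.56 with vehicle and 10.77 and 10.40 with the combination, and the gap between its vehicle arrays, 0.94, exceeded its difference of -0.45 (SE 0.36). Birc5 had 9.99 and 9.72 with vehicle and 9.74 and 9.74 with the combination. Vehicle 1 was again the high array of both genes.

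Aurka had differences of opposite sign in the numbers, with signals of 11.20 and 10.81 with vehicle and 10.88 and 11.14 with the combination. Its differences were -0.32 within number 1 and 0.32 within number 2, and they cancel in the mean. Plk1 had 13.95 and 13.30 with vehicle and 13.63 and 13.15 with the combination. For Plk1 both number 1 arrays were above both number 2 arrays.

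The spindle checkpoint, which delays anaphase until chromosomes are attached, had 4 of 4 members with negative differences and a median of -0.29. Within number 2 alone, 2 of the 4 were lower. So few genes stand beside 81.8% of all members, 64.1% of genes in the middle signal range and 44.6% of features lower by sign. Bub1, a checkpoint kinase, had signals of 10.88 and 10.86 with vehicle and 10.62 and 10.39 with the combination. The vehicle arrays were nearly equal and both above the combination arrays, and its unadjusted p was the smallest of all members, 0.057 (difference -0.37, SE 0.15, adjusted p 0.896 in limma). With arrays centred on their medians, Bub1 had a difference of -0.42 and an unadjusted p of 0.0372, with an adjusted p of 0.84, the only member under 0.05 in that fit, where 3.44% of features and 7.53% of the genes in the middle signal range were lower.

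Bub1b, a component of the checkpoint's inhibitory complex, had 9.54 and 9.18 with vehicle and 9.04 and 8.98 with the combination. Its groups did not overlap, and its difference was -0.35 (SE 0.17, adjusted p 0.929 in limma). Ttk and Mad2l1, which start and carry the checkpoint signal, had differences of -0.22 and -0.10.

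The checkpoint acts on Cdc20, the activator of the anaphase-promoting complex. Cdc20 had signals of 11.98 and 11.57 with vehicle and 11.50 and 11.79 with the combination, with differences of -0.48 within number 1 and 0.22 within number 2. Ube2c, a ubiquitin-conjugating enzyme of the same complex, had 13.95 and 13.84 with vehicle and 13.63 and 13.72 with the combination. Its groups did not overlap, at a difference of -0.22 (SE 0.13, adjusted p 0.945 in limma).

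Cenpa, the centromeric histone, also had differences of opposite sign, -0.50 within number 1 and 0.26 within number 2. Its signals were 11.93 and 11.22 with vehicle and 11.43 and 11.48 with the combination, and the combination arrays lay between the vehicle arrays. The kinetochore proteins Cenpe and Cenpf had differences of 0.02 and -0.36.

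Hmmr, a spindle assembly factor, had signals of 12.25 and 11.57 with vehicle and 11.89 and 11.21 with the combination. Nusap1, which bundles spindle microtubules, had the most positive difference of the members, with 11.43 and 10.85 with vehicle and 11.80 and 11.01 with the combination, a difference of 0.26 (SE 0.35). In both genes the numbers were further apart than the groups. Kif11, the motor that pushes spindle poles apart, and Tpx2, an activator of Aurka, had differences of -0.19 and -0.10.

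Kif20a, a kinesin of the central spindle needed for cytokinesis, was lower in each number, by differences of -0.60 and -0.43. Its signals were 11.54 and 10.94 with vehicle and 10.95 and 10.51 with the combination, vehicle 2 and combination 1 being nearly equal, and the difference was -0.51 (SE 0.27). Kif23, a second motor of the same structure, had 11.68 and 11.37 with vehicle and 11.53 and 11.89 with the combination. The highest array of Kif23 was combination 2, with a difference of 0.52 within number 2 and -0.15 within number 1. Prc1 and Ect2, which organise the midzone and the cleavage furrow, had differences of 0.01 and -0.11.

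Read against the promoter letters, the 9 measured G1/S members with E2F-type letters had a median difference of -0.23, and the 13 with a window but without them had -0.14. The 19 measured G2/M members with CHR-type letters had a median of -0.19, and the 4 without them had -0.04. The other letters gave gaps too. In G1/S, the 4 measured members with CHR-type letters had -0.24 and the 18 without them -0.18. The 15 G1/S members with a CCAAT box had -0.14 and the 7 without it -0.19. In G2/M, the 20 with a CCAAT box had -0.18 and the 3 without it -0.10. Cdk1, with E2F-type letters, had -0.18, and the 22 without them -0.12. These are descriptions of few genes with no test. Within a phase the differences spread more widely than these medians, from -0.54 to 0.12 in G1/S and from -0.57 to 0.26 in G2/M.

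More members stood apart by replicate number than by treatment, though none passed the adjusted test. By limma, at an unadjusted p under 0.05, 18 of the members differed between numbers and 3 between treatments in the fit that holds both terms, to be read against the shares of features given for each. The median log2 difference, number 1 minus number 2, was 0.44 on the vehicle arrays and 0.22 on the combination arrays for the G1/S members, and 0.38 and 0.04 for the G2/M members. Number 1 was higher on vehicle and on combination arrays alike for 39 of 55 members (70.9%), 22 G1/S and 17 G2/M, against 26.3% of features and 44.8% of genes in the middle signal range. With the group kept as a term, limma called 0 members at an adjusted p under 0.05, where 0.0606% of features were called. With number as the only term, chosen after the data were seen, leaving out vehicle 1 lowered the medians, averaged over groups, from 0.32 to 0.17 for G1/S and from 0.17 to 0.03 for G2/M. Without combination 1 they were 0.48 and 0.34. The members at an unadjusted p under 0.05 in limma numbered 13 in that fit, 3 without vehicle 1, 7 without vehicle 2, 19 without combination 1 and 3 without combination 2.

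At an unadjusted p under 0.05, 17 members were higher in number 1 (30.9%; 8 G1/S and 9 G2/M), against 5.35% of features and 15.1% of genes in the middle signal range. One member, Cdc25b, was lower in number 1, as were 4.8% of features. Hmmr had the smallest p among the members, with number 1 higher by 0.68 on the vehicle arrays and by 0.68 on the combination arrays (SE 0.14, unadjusted p 0.00612, adjusted p 0.30 in limma). Nusap1 was higher by 0.59 and 0.79, Cenpf by 0.60 and 0.60, Mcm6 by 0.56 and 0.54 and Pola1 by 0.46 and 0.69. In these genes the sign of the gap was the same in both groups. Cdc25b ran the other way, with signals of 7.60 and 8.17 with vehicle and 7.61 and 8.09 with the combination.

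Other members differed between numbers mainly on the vehicle arrays. Aurkb was higher in number 1 by 0.94 with vehicle and 0.38 with the combination, Mcm2 by 0.86 and 0.22, and Gins1 by 0.83 and 0.20. Cdc20, Aurka and E2f1 were higher in number 1 with vehicle, by 0.42, 0.39 and 0.54, and lower in number 1 with the combination, at -0.29, -0.26 and -0.31. The contrast between groups of these gaps rests on 1 array per number and group and has no test.

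Markers of maturing cells also differed by replicate number. Counts in the marker lists stand beside 26.3% of features and 44.8% of genes in the middle signal range higher in number 1 in both groups. Lower in number 1 in both groups were 29.8% and 25.9%. The mean log2 signal of the 11 neutrophil markers was 11.83 and 12.32 on the number 1 arrays (vehicle and combination) and 9.67 and 10.65 on the number 2 arrays, and 8 of the 11 were higher in number 1 in both groups. Ngp, a granule protein of maturing neutrophils, had 14.82 with vehicle 1 and 14.98 with combination 1, against 8.69 with vehicle 2 and 9.93 with combination 2. Camp and Ltf, also granule genes, were higher in number 1 by 5.88 and 4.78 with vehicle and by 4.39 and 4.19 with the combination. Mpo and Elane, of the earlier granules, ran the other way, with number 1 lower by differences of -0.26 and -0.19 with vehicle and -0.25 and -0.26 with the combination.

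Of the 7 measured erythroid markers, 6 were higher in number 1 in both groups, and the list mean was 11.67 and 11.14 on the number 1 arrays and 11.002 and 10.726 on the number 2 arrays. Klf1, the erythroid transcription factor, was higher in number 1 by 1.57 with vehicle and 0.78 with the combination, while Alas2, of heme synthesis, was lower in both, at -1.32 and -1.80. The progenitor list went the other way with vehicle, at 8.54 in vehicle 1 and 9.05 in vehicle 2, and stood at 8.39 in combination 1 and 8.53 in combination 2. Of its 8 measured markers, 5 were lower in number 1 in both groups and 0 were higher in both. Cd34, 1 of the 5, had differences of -0.98 and -1.0, number 1 minus number 2. Kit, Slamf1 and Myb were lower in number 1 with vehicle and higher with the combination, Kit by 0.90. The monocyte, megakaryocyte and mast cell lists had lower means in number 1 in both groups, by less than 0.5 in each. The part of these cell markers in the members' gap between numbers was not tested.

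Genes of the same processes outside the list were read in the same way. Counts by sign in these lists stand beside the 44.6% of features and 64.1% of genes in the middle signal range that were lower. Of 46 other replication genes, 43 were measured, and their median difference was -0.10. There were 31 lower (72.1%), 12 higher and 0 at an unadjusted p under 0.05 in limma. Tk1, thymidine kinase, and Dnmt1, the maintenance DNA methyltransferase, had the smallest p among the lower ones, with differences of -0.68 (SE 0.28) and -0.34 (SE 0.14) and adjusted p of 0.90 and 0.90. Orc6 and Gins4 had the smallest p among the higher ones, with 0.30 and 0.32. Between numbers, 7 of the 43 (16.3%) were higher in number 1 at an unadjusted p under 0.05 in limma. That is near the 15.1% of genes in the middle signal range, where 5.35% of features were.

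Of 50 other mitosis genes, 48 were measured, with a median of -0.06, 35 lower (72.9%) and 13 higher. Racgap1, of the central spindle, was the only one at an unadjusted p under 0.05 in limma, with a difference of -0.47 (SE 0.16, unadjusted p 0.0333, adjusted p 0.85). Mybl2, which encodes B-Myb, had -0.46, and Depdc1a and Sgo2a had the smallest p among the higher ones, with 0.53 and 0.25. Between numbers, 7 of the 48 (14.6%) were higher in number 1 at an unadjusted p under 0.05 in limma, and 0 were lower. That is near the 15.1% of genes in the middle signal range, where 5.35% of features were higher. Pttg1, securin, had the smallest p between numbers in this list. Its signals were 9.97 and 8.79 with vehicle and 9.92 and 8.89 with the combination, higher in number 1 by 1.10 (adjusted p 0.18 in limma). The groups of Pttg1 were alike within each number.

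Of 25 upstream regulators, 23 were measured, and their median difference was -0.21, with 17 lower (73.9%) and 6 higher. Myb, the c-Myb factor that keeps progenitors dividing, had 11.53 and 11.85 with vehicle and 11.22 and 11.15 with the combination, a difference of -0.51 (SE 0.16, unadjusted p 0.0301, adjusted p 0.84 in limma). E2f4, the main E2F of the DREAM complex, had 12.29 and 12.01 with vehicle and 11.75 and 11.50 with the combination, a difference of -0.52 (SE 0.17, unadjusted p 0.0339, adjusted p 0.85 in limma). Both were lower in each number, and neither passed the adjusted test. These 2 (8.7% of the 23) were the only ones at an unadjusted p under 0.05 in limma. Rbl2 and Mybl1 had the smallest p among the higher ones, with 0.09 and 0.12. Between numbers, 2 of the 23 (8.7%) were higher in number 1 at an unadjusted p under 0.05 in limma, and 1 (4.35%) lower. Among genes in the middle signal range these shares were 15.1% and 7.35%, and among features 5.35% and 4.8%.

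**Figure D4:**
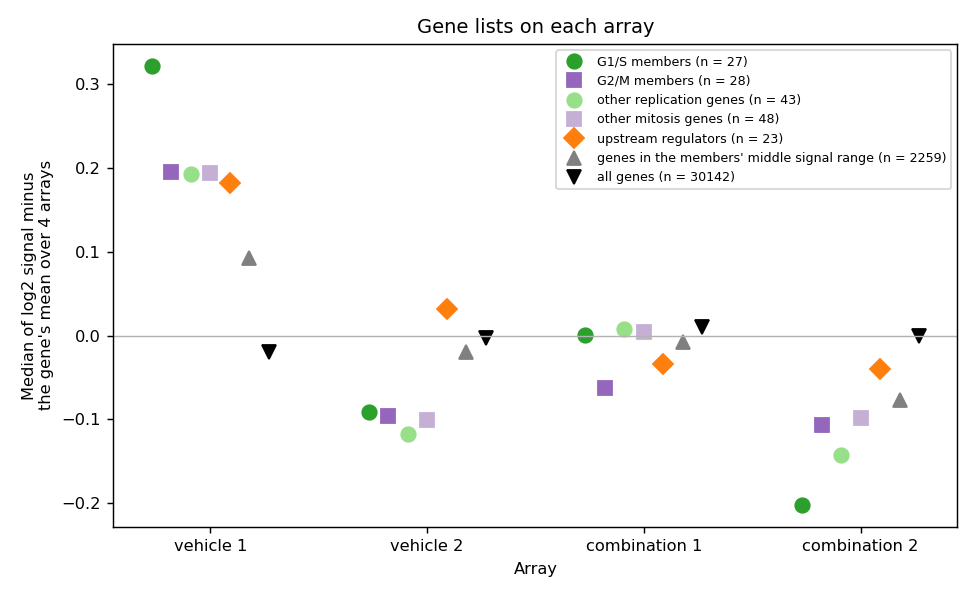
Median over the genes of each list of the log2 RMA signal minus the gene's mean over the 4 arrays, shown per array for the G1/S and G2/M members, the other replication and mitosis genes, the upstream regulators, the genes in the members' middle signal range and all genes. Every cell cycle list is highest on vehicle 1, and so, at 0.09, are the genes in the middle signal range, while the median over all genes stays near 0 on the 4 arrays.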

How the data were processed

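Per the submitters' processing notes, RMA was run by the authors in the Transcriptome Analysis Console, and the deposited table holds its log2 output. No version and no genome build is given in the sources used here. RNA was isolated with the PicoPure kit and 10 ng was labelled with the WT Pico kit, per the labels' protocols. RMA gives arrays a like distribution and compresses dim signals, which hides any change in total RNA per cell and understates differences of dim genes.

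Of 72688 rows, 6732 control rows were left out. Repeated symbols in the platform annotation were merged, after which 30604 features had 1 symbol, 2146 several and 33206 none. All 65956 features were fitted with limma 3.58.1 in R 4.3.3 (lmFit and eBayes, two-sided, Benjamini-Hochberg, threshold 0.05), with group as the only term (2 residual degrees of freedom) or with group and number (1). The code of the fits was run on simulated arrays with planted changes, all larger than any member's difference between groups. That run does not show whether differences as small as the members' could be called.

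The members and gene lists were chosen with earlier results of these data known, so lists are described by counts and medians. Values on every array are given for fixed members and for those with the smallest p, the largest differences within or between numbers, or the widest disagreement between numbers. From the other lists, the genes with the smallest p in each direction were named. Alternatives were the replicate block, an intensity trend, a robust prior, filters on signal, a second quantile normalization, median centring, kept control rows, other probe sets, and leaving out each array, for the numbers in a fit of number alone that was added after the data were seen. Whether numbers pair the samples is not stated: over all features, the number 1 minus number 2 differences of the groups correlated at 0.33, with only 2 pairs. Precision is limited by the number of arrays.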

Additional observations from a re-analysis of the deposited data

How the results depend on the processing

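Of the 55 members, 0 were called for the combination under every alternative run, and 0 between numbers. With limma's unadjusted p under 0.05, the count for the combination was 3, all lower, with the replicate block and 1, lower, with arrays centred on their medians. Leaving out 1 array gave 0 to 9, the 9 without vehicle 2. In those fits the lone array is assumed to vary like the other group. The G1/S median ranged from -0.43 without vehicle 2 to -0.011 without vehicle 1, and the G2/M median from -0.30 to 0.01. Centring gave medians of -0.23 and -0.19, and a second quantile normalization gave -0.16 and -0.14. Between numbers, with all 4 arrays, the count at an unadjusted p under 0.05 was 13 to 18, and the G2/M median was 0.09 after the second quantile normalization against 0.17. Other probe sets gave the same values, since each member has 1. Of 33 members given on every array, 18 kept their sign for the combination in all 14 alternatives and 15 did not. With group as a term, the comparison of numbers could not be fitted without 1 array. With number as the only term, an alternative chosen after the data were seen, leaving out 1 array gave 3 to 19 members at an unadjusted p under 0.05 in limma (3 without vehicle 1 or combination 2, 7 without vehicle 2, 19 without combination 1), a G1/S median of 0.17 to 0.48 and a G2/M median of 0.03 to 0.34. Causes were not tested. The replicate block is an alternative only, since the labels do not say that numbers pair samples.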
